A study of Homo sapiens with 44 samples.

Results

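The genes described here are 10 members of the YAP-TEAD axis, measured in HCT116, a cell line from a human colon carcinoma. They comprise 2 coactivators (YAP1 and WWTR1, whose protein is TAZ), 2 DNA-binding partners (TEAD1 and TEAD4) and 6 genes known as targets of the pair (CTGF, CYR61, ANKRD1, AMOTL2, LATS2 and AXL). They were picked out by symbol from a list of named genes, a list drawn up with earlier results of these data known. All 10 were found among the 18797 genes of a table on GAS41, the protein made by YEATS4, and among the 21159 genes of a table on doxorubicin. All 10 also passed the minimum of 10 reads in 3 libraries in both tables.

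The series has 44 samples, of which 18 are RNA libraries in 6 groups of 3, and the 26 ChIP and input samples were not analysed here. Every library came from HCT116 cells labelled p53+/+. In the GAS41 experiment WT denotes the unedited cells, GAS41-KO the GAS41 knockout, wt rescue the knockout with stable expression of GFP-Flag-GAS41 wt, and mut rescue the knockout with stable expression of GFP-Flag-GAS41 Y74A/W93A. Both changes of the mutant lie in the YEATS domain, the module by which GAS41 reads acylated lysines of histone H3. In the second experiment cells received 500 nM of the topoisomerase poison doxorubicin, which causes DNA breaks, or its solvent DMSO. The labels do not give the time of treatment, the promoter of the rescue constructs or whether a line is 1 clone. Nor do they say that the 3 libraries of a group came from separate cultures, so a p-value may measure only technical spread.

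YAP and TAZ do not bind DNA themselves. The Hippo kinase cascade, which ends in LATS1 and LATS2, phosphorylates them and holds them in the cytoplasm. When the cascade is low they enter the nucleus, bind the TEAD factors and raise transcription of matrix proteins, growth factors and their own inhibitors, LATS2 and AMOTL2 among them. In intestinal epithelium the axis is best known for regeneration after injury.

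TEAD factors recognise the letters GGAATG. Windows of 250 bases before a gene start seldom hold several matches on either strand: among 35116 such RefSeq windows (build GRCh38.p14), 11.9% hold at least 1, 0.94% at least 2 and 0.0826% at least 3. Of the members, 7 had 1 or more windows, 10 windows in all, and 5 windows of 5 members held the motif. TEAD1, TEAD4 and CYR61 had no window in the source used, so statements on matches cover only the other 7. The upstream stretches of CTGF (CCN2 in RefSeq; chr6:131951373-131951622, minus strand) and ANKRD1 (chr10:90921088-90921337, minus strand) are shown because they hold the most matches of the members and because these genes had some of the largest changes described below. Capitals mark GGAATG, and both run 5′ to 3′ up to the base before the start.
CTGF: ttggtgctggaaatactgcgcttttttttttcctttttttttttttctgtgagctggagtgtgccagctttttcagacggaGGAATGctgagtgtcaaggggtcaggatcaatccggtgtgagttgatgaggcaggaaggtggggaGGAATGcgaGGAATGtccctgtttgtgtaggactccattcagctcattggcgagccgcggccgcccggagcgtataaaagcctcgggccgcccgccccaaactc
ANKRD1: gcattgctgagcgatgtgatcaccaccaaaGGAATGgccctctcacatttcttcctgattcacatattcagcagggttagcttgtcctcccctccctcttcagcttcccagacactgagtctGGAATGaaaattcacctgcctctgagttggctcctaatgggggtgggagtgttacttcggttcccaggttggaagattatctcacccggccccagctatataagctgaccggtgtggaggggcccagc

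The first bases of the CTGF matches lie 169, 104 and 95 bases before its start, and those of ANKRD1 220 and 128 bases before. Single matches were found before YAP1 (162 bases), before the second listed start of AMOTL2 (69 bases) and before the second listed start of AXL (212 bases). Short stretches around these matches are shown for comparison with the sites of CTGF and ANKRD1. The regions are chr11:102110273-102110302 (plus strand) for YAP1, chr3:134374499-134374528 (minus strand) for AMOTL2 and chr19:41226531-41226560 (plus strand) for AXL, and capitals mark GGAATG or its reverse complement CATTCC.
YAP1: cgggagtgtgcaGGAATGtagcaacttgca
AMOTL2: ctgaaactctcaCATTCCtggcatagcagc
AXL: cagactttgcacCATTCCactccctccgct

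No match was found in the windows of WWTR1 and LATS2 or at the first listed starts of AMOTL2 and AXL. AP-1 factors, which often occupy enhancers together with TEAD, recognise TGANTCA. This motif was present in 6.57% of the 35116 windows and, among the members, only in that of ANKRD1, where it did not overlap a TEAD match. A match of letters describes the sequence and is not a measurement of binding. The map of matches by distance shows how the CTGF and ANKRD1 windows differ from the other 8.

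**Figure D1:**
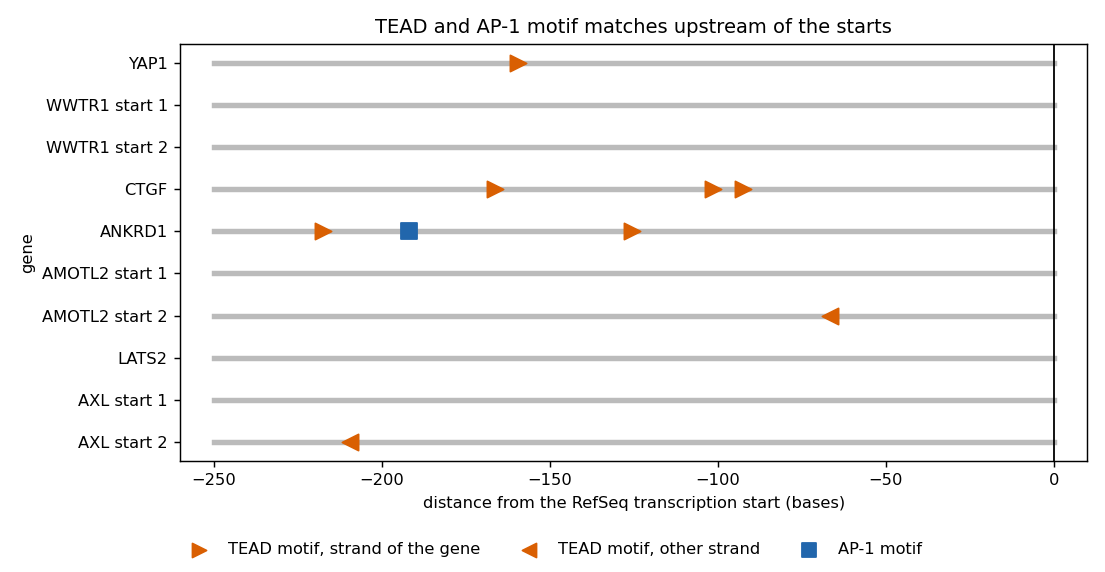
Matches to the TEAD motif (GGAATG, both strands) and the AP-1 motif (TGANTCA) in 10 upstream windows of 7 members, by distance in bases from the RefSeq start; each line is 1 window. CTGF has 3 TEAD matches and ANKRD1 2 TEAD matches and 1 AP-1 match, whereas YAP1, AMOTL2 and AXL have 1 TEAD match in 1 window each.

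Depth lay between 16857982 and 18546135 reads in the GAS41 libraries and between 17442035 and 18894312 in the doxorubicin libraries. Levels are given as normalized reads, that is, reads divided by the size factor of the library; they are not scaled by gene length and are compared only within a gene. Changes are differences of the deposited log2 values, on which the first unit above the lowest value equals 39.1 normalized reads (GAS41 table) or 52.6 (doxorubicin table), so the log2 change of a gene with few reads is smaller than its fold. The wt rescue libraries differed most from each other: replicate 1 differed from replicates 2 and 3 by 23.98 and 15.57 times the variance of read counting, against 1.6 to 2.7 times for pairs of WT libraries. Wide pairs were also found in mut rescue (15.46 times for replicates 2 and 3) and in DMSO (19.25 times for replicates 1 and 3). All 10 colon epithelial markers had a row in both tables, and VIL1 was near 0 in each of these 4 groups (means 0.634 in WT, 0.664 in GAS41-KO, 0 in wt rescue and 1.00 in mut rescue). In normalized reads the 10 summed to 58693 to 62420 for WT, 65015 to 66888 in GAS41-KO, 78032 to 91051 in wt rescue and 66926 to 81226 in mut rescue. These sums are mostly KRT8, KRT18 and KRT19, and single markers moved otherwise. EPCAM, an epithelial adhesion molecule, stood at 7503 ± 348 in WT, 915 ± 17.0 in GAS41-KO, 9012 ± 782 in wt rescue and 1670.2 ± 162 in mut rescue (SD, n = 3). CDH1, which encodes E-cadherin, stood at 1419 ± 17.0, 138 ± 15.1, 1349.8 ± 103 and 163 ± 13.6 in the same order. KRT20, a keratin of differentiated colon cells, stood at 16.5 ± 2.46, 103 ± 4.21, 22.7 ± 8.58 and 95.4 ± 9.52. The HCT116 label thus met its keratins in every group and low EPCAM and CDH1 in GAS41-KO and mut rescue. Blood and immune markers (5 of 7 listed in the GAS41 table) summed to 194 to 213 in WT, 216 to 238 in GAS41-KO, 320 to 389 in wt rescue and 232 to 303 in mut rescue. These sums are mostly CD68 (mean 180 in WT and 329 in wt rescue). PTPRC was near 0 throughout, with a mean of 1.66 in GAS41-KO and 0 in the other groups. Fibroblast markers (3 of 8 listed) summed to 161 to 179 in wt rescue, with COL3A1 at 0, and to 240 to 335 in the other 3 groups. The part of these shifts in the results was not tested. In bulk RNA, fewer cells of a kind and less RNA per cell cannot be told apart.

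YEATS4, the targeted gene, was read at 625, 608 and 621 normalized reads in WT and at 386, 337 and 325 in GAS41-KO, a difference of -0.64 log2 (limma, adjusted p = 2.09e-06). The knockout libraries thus kept YEATS4 transcript, 1.77-fold lower than WT, and the table does not measure the protein. In wt rescue it was read at 2887, 3499.6 and 3372 and in mut rescue at 2551, 2358 and 2538, 5.26-fold and 4.01-fold above WT. Reads from the endogenous gene and from the construct cannot be told apart in these values.

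In GAS41-KO, 8 of the 10 genes rose over WT, 1 (TEAD4) fell and 1 (YAP1) did not pass the test. The median change of the 10 was 0.57 log2, against -0.01 over the 14505 genes tested. The background of calls was broad, with 26% of all tested genes called higher and 26.6% called lower (limma, Benjamini-Hochberg adjusted p under 0.05). Leaving out any 1 library of GAS41-KO or WT left 9 of the 10 called. In the same libraries EPCAM was 8.20-fold lower, CDH1 10.3-fold lower and KRT20 6.27-fold higher than in WT. Other colon epithelial markers had higher means in GAS41-KO than in WT for KRT8 (36697 against 26988), KRT18 (16706 against 12799) and CLDN3 (123 against 87.0). CLDN4 was lower (1394 against 1842). CDX2 (215 against 235) and KRT19 (9707 against 9845) differed by less than their SD in WT. The part of these shifts in the changes of the members was not tested.

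The coactivators differed. WWTR1, which encodes TAZ, was read at 1425, 1322 and 1345 normalized reads in WT and at 3941, 3766 and 3668 in GAS41-KO. The groups were far apart, a rise of 1.38 log2 (95% interval 1.23 to 1.53; 2.78-fold; limma, adjusted p = 1.29e-10). YAP1, the paralog of TAZ, was read at 2584, 2439 and 2619 in WT and at 2756, 2571 and 2625 in GAS41-KO. These ranges overlapped, and the difference of 0.05 log2 had a 95% interval of -0.11 to 0.21 (limma, adjusted p = 0.577).

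Of the DNA-binding partners, TEAD1 was read at 3559, 3240.2 and 3454 normalized reads in WT and at 5848, 5744 and 5778 in GAS41-KO. It rose by 0.74 log2 (0.57 to 0.90; 1.69-fold; limma, adjusted p = 9.81e-07), with no overlap of libraries. TEAD4 moved the other way, from 605, 615 and 607 in WT to 448, 448 and 425 in GAS41-KO. All 3 knockout libraries lay under all WT libraries, a change of -0.37 log2 (-0.49 to -0.25; 1.38-fold lower; limma, adjusted p = 5.11e-05).

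Among the targets, ANKRD1, a nuclear ankyrin-repeat cofactor used as a standard readout of YAP activity, was nearly silent in WT. Its normalized reads were 0.955, 1.89 and 2.85 in WT and 162, 138 and 133 in GAS41-KO. Summed over libraries, 434 reads stood against 6, a ratio of 75.9 after scaling (exact 95% interval 34.6 to 208, for counting error only), and the deposited values differed by 1.61 log2 (limma, adjusted p = 2.13e-11). Since ANKRD1 passed the read minimum only through GAS41-KO and mut rescue, in which it is high, it had to differ between groups. The same limit applies below wherever ANKRD1 in GAS41-KO or mut rescue is set against WT or wt rescue.

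CTGF, a secreted matrix protein of the CCN family, was read at 47.7, 41.6 and 36.1 normalized reads in WT and at 203, 222 and 198 in GAS41-KO. It rose by 1.115 log2 (0.98 to 1.25; 4.97-fold; limma, adjusted p = 3.78e-10). Its family member CYR61 was read at 227, 239 and 262 in WT and at 379, 366 and 377 in GAS41-KO. The rise of CYR61 was 0.44 log2 (0.29 to 0.59; 1.54-fold; limma, adjusted p = 8.56e-05), again with no overlap.

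Genes of negative feedback rose too. AMOTL2, an angiomotin-like protein that binds YAP and holds it outside the nucleus, was read at 833, 894 and 872 in WT and at 1510.5, 1483 and 1538 in GAS41-KO (0.71 log2, 1.74-fold; limma, adjusted p = 4.48e-07). LATS2, the kinase that phosphorylates YAP and TAZ, went from 326, 338 and 326 to 473, 492 and 481 (0.41 log2, 1.46-fold; limma, adjusted p = 8.97e-06). AXL, a receptor tyrosine kinase, was read at 1607, 1589 and 1663 in WT and at 2102, 2261 and 2229 in GAS41-KO (0.41 log2, 1.36-fold; limma, adjusted p = 4.84e-05). For these 3 genes every knockout library lay above every WT library.

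**Figure D2:**
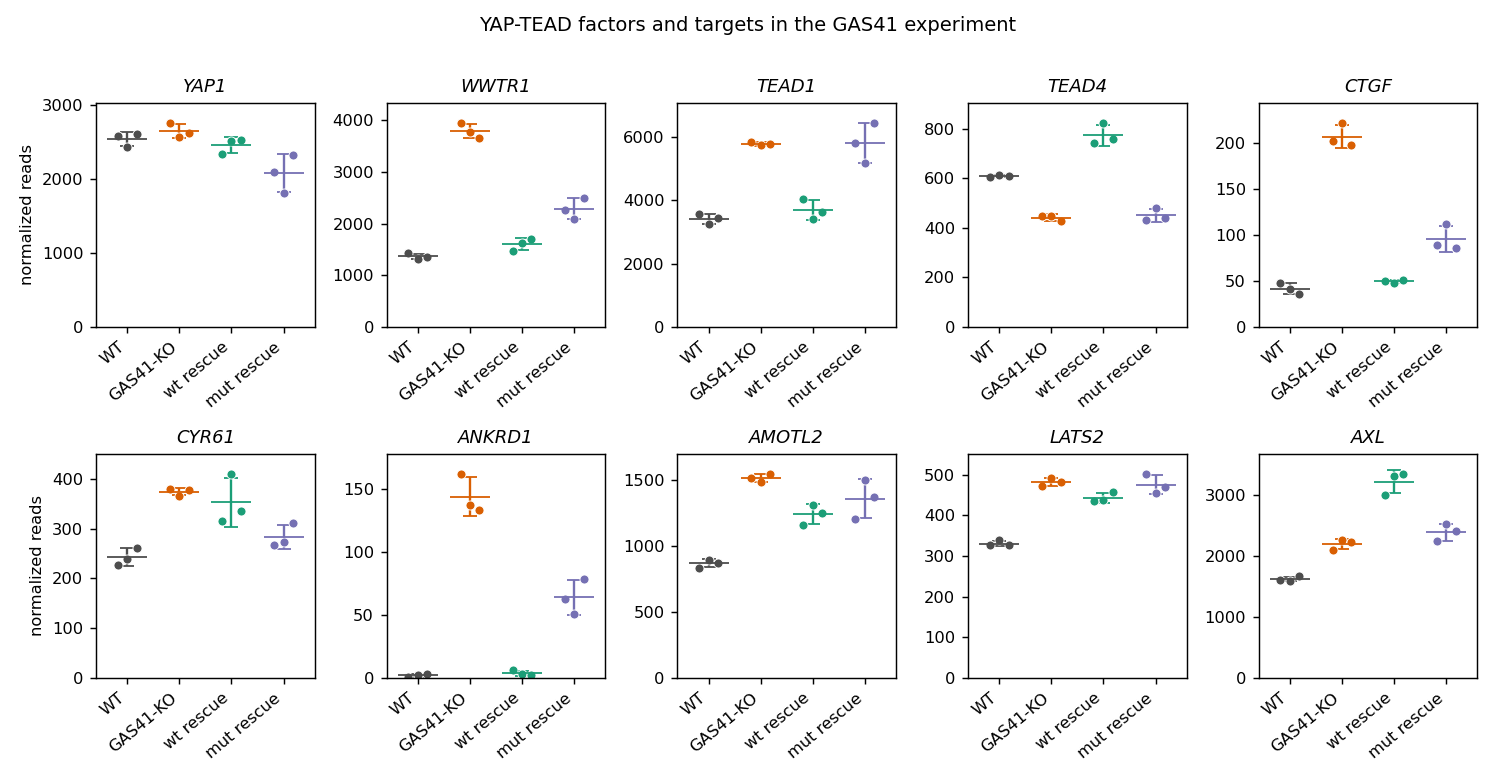
Normalized reads of the 10 members in the 12 libraries of the GAS41 experiment, 1 panel per gene with its own linear axis from 0; points are libraries, dashes the mean of 3 libraries and error bars its SD. ANKRD1, CTGF and WWTR1 stand high in GAS41-KO, TEAD4 is lower there than in WT, and AXL is highest in wt rescue.

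With GAS41 wt expressed in the knockout cells, 5 members fell from the GAS41-KO level (WWTR1, TEAD1, CTGF, ANKRD1 and AMOTL2) and 2 rose (TEAD4 and AXL). The background was 33% of tested genes higher and 33% lower, and the median change was -0.18 log2 for the members and -0.01 for all tested genes. Both this comparison and the previous rest on the same GAS41-KO libraries, so the changes are set side by side and not counted as independent. With replicate 1 as the only wt rescue library, 7 members were again called.

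WWTR1 was read at 1474, 1630.3 and 1702 normalized reads in wt rescue, below every GAS41-KO library, and fell by 1.17 log2 (2.37-fold lower; limma, adjusted p = 1.02e-09). Over WT it stood 0.21 log2 higher (0.06 to 0.36; 1.17-fold; limma, adjusted p = 0.0224). That last call was near the threshold. It ended, at differences not far from 0.21, without wt rescue replicate 2 (0.20 log2, adjusted p = 0.0598), wt rescue replicate 3 (0.17, adjusted p = 0.108), WT replicate 2 (0.19, adjusted p = 0.0771) or WT replicate 3 (0.20, adjusted p = 0.0690). YAP1 lay at 2339.6, 2521 and 2531, under each GAS41-KO library, but its difference of -0.10 log2 (-0.26 to 0.06) did not pass (limma, adjusted p = 0.255).

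TEAD1 was read at 4051, 3409.8 and 3642 normalized reads in wt rescue and fell by 0.63 log2 from GAS41-KO (1.56-fold lower; limma, adjusted p = 3.52e-06). Its difference from WT was 0.11 log2 (-0.06 to 0.27; limma, adjusted p = 0.265). TEAD4, at 743, 821 and 757, rose 1.76-fold over GAS41-KO (0.65 log2; limma, adjusted p = 7.12e-08). It also stood above WT, by 0.28 log2 or 1.27-fold (limma, adjusted p = 0.00102), so the order for TEAD4 was GAS41-KO, WT, wt rescue.

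By fold, CTGF and ANKRD1 were the members furthest below GAS41-KO. CTGF was read at 49.8, 48.0 and 51.6 normalized reads in wt rescue, 4.17-fold below GAS41-KO (-1.02 log2; limma, adjusted p = 1.06e-09), and its difference from WT was 0.09 log2 (-0.04 to 0.22; limma, adjusted p = 0.228). ANKRD1 was read at 5.98, 3.13 and 2.06, that is 11 reads in all. The ratio of GAS41-KO to wt rescue was 38.4 (exact 95% interval 21.3 to 77.5), and the deposited values differed by -1.52 log2 (limma, adjusted p = 4.54e-11). Over WT the ANKRD1 difference was 0.09 log2 (-0.06 to 0.24; limma, adjusted p = 0.322).

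Each of the other 4 targets remained above WT. CYR61, at 316, 409 and 335 normalized reads, differed from GAS41-KO by -0.07 log2 (-0.22 to 0.09; limma, adjusted p = 0.434) and stood 1.46-fold above WT (0.37 log2; limma, adjusted p = 0.000743). LATS2, at 434, 437 and 457, differed from GAS41-KO by -0.09 log2 (-0.21 to 0.02; limma, adjusted p = 0.129) and stood 1.34-fold above WT (0.31 log2; limma, adjusted p = 0.000315). AMOTL2 lay in between: at 1157, 1308 and 1249 it was 1.22-fold below GAS41-KO (-0.26 log2; limma, adjusted p = 0.00414) and 1.43-fold above WT (0.45 log2; limma, adjusted p = 0.000176). AXL, at 3008, 3320.1 and 3337, rose beyond GAS41-KO by 1.47-fold (0.52 log2; limma, adjusted p = 2.44e-06) and stood 1.99-fold above WT (0.93 log2, 0.79 to 1.06; limma, adjusted p = 4.78e-08).

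Measured against WT, wt rescue thus had 6 members higher (WWTR1, TEAD4, CYR61, AMOTL2, LATS2 and AXL), none lower and 4 without a call (YAP1, TEAD1, CTGF and ANKRD1). The background was 27.4% higher and 22.7% lower over all tested genes. YAP1 differed from WT by -0.05 log2 (-0.21 to 0.11; limma, adjusted p = 0.635). Without the 4 libraries named above for WWTR1, taken out 1 at a time, 5 members were called.

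**Figure D3:**
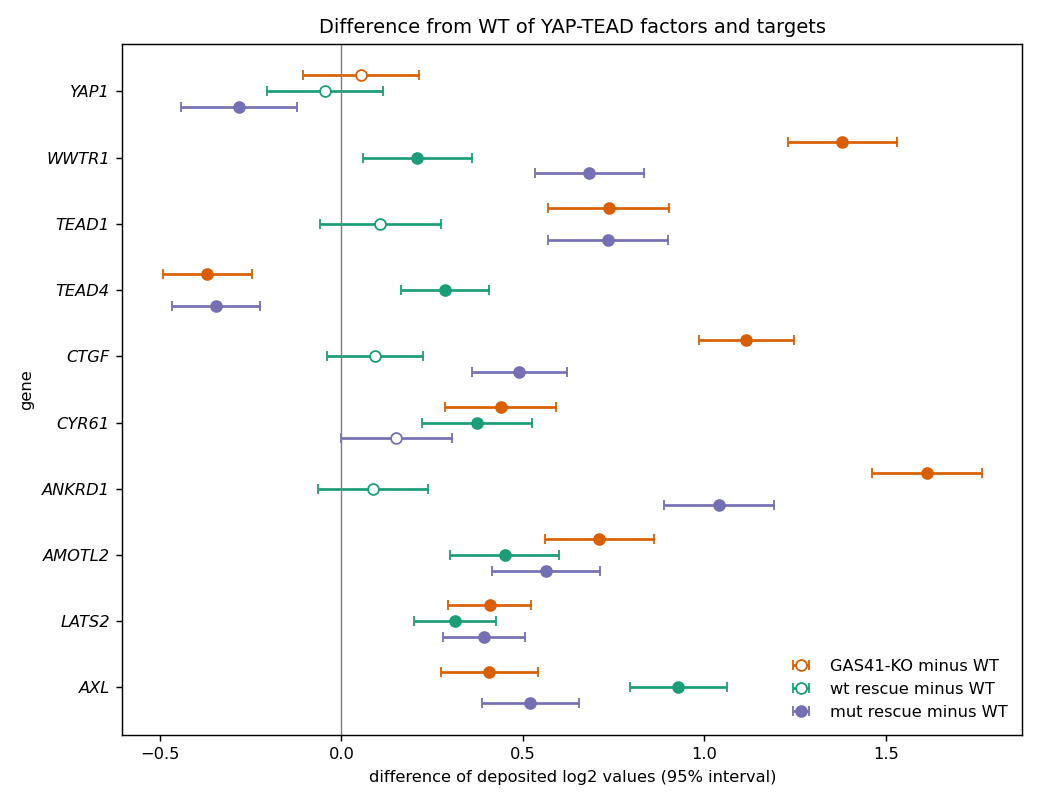
Difference from WT in log2 of the deposited values for the 10 members in GAS41-KO, wt rescue and mut rescue; points are differences of group means (n = 3 each) and bars 95% intervals from the fit, with open points for differences not called. WWTR1, CTGF and ANKRD1 are high in GAS41-KO, intermediate in mut rescue and near WT in wt rescue, whereas TEAD1 lies as high in mut rescue as in GAS41-KO.

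With the Y74A/W93A form expressed instead, 5 members fell from the GAS41-KO level (YAP1, WWTR1, CTGF, CYR61 and ANKRD1) and none rose. Fewer genes changed in all: the background was 5.92% higher and 9% lower, and the median change was -0.22 log2 for the members and 0.01 for all tested genes. WWTR1 was read at 2269, 2091 and 2495 normalized reads, 1.66-fold below GAS41-KO (-0.70 log2; limma, adjusted p = 6.26e-06). CTGF was read at 89.8, 112 and 85.5, 2.17-fold below (-0.62 log2; limma, adjusted p = 4.83e-06). ANKRD1, at 62.8, 50.9 and 78.5, was 2.25-fold below (-0.57 log2; limma, adjusted p = 5.53e-05). For all 3 genes the mut rescue libraries formed a separate middle level, under every GAS41-KO library and above every WT library.

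YAP1 was read at 2092, 1816 and 2329.9 normalized reads in mut rescue and was 1.27-fold below GAS41-KO (-0.33 log2; limma, adjusted p = 0.00656). CYR61, at 267, 272 and 311, was 1.32-fold below (-0.29 log2; limma, adjusted p = 0.0126), a call that ended without mut rescue replicate 1 (adjusted p = 0.0620). Both TEAD genes stayed near their GAS41-KO values. TEAD1, at 5804, 5175 and 6438, differed by -0.00 log2 (-0.17 to 0.16; limma, adjusted p = 0.992). TEAD4, at 433, 481 and 438, differed by 0.02 log2 (-0.10 to 0.15; limma, adjusted p = 0.84).

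The remaining targets did not pass the test against GAS41-KO. AMOTL2, at 1204, 1496 and 1365 normalized reads, differed by -0.15 log2 (-0.30 to 0.00; limma, adjusted p = 0.188), and by -0.21 with a call (adjusted p = 0.0401) when mut rescue replicate 2 was left out. LATS2, at 501, 456 and 471, differed by -0.02 log2 (-0.13 to 0.10; limma, adjusted p = 0.892). AXL, at 2246, 2524 and 2403, differed by 0.11 log2 (-0.02 to 0.25; limma, adjusted p = 0.258).

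Against WT, mut rescue had 7 members higher (WWTR1, TEAD1, CTGF, ANKRD1, AMOTL2, LATS2 and AXL) and 2 lower (YAP1 and TEAD4), beside a background of 23.5% higher and 22.9% lower. WWTR1 stood 1.67-fold above WT (0.68 log2; limma, adjusted p = 9.35e-07), TEAD1 1.70-fold (0.73 log2; limma, adjusted p = 1.31e-06) and CTGF 2.29-fold (0.49 log2; limma, adjusted p = 8.17e-06). ANKRD1 had 192 reads against 6, a ratio of 33.7 (exact 95% interval 15.2 to 93.0). YAP1 was 1.23-fold lower (-0.28 log2; limma, adjusted p = 0.00597), the only comparison with WT in which it was called. CYR61 did not pass, with 0.15 log2 (-0.00 to 0.30; limma, adjusted p = 0.0976).

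The direct comparison of the rescue lines gives the test of their difference. Of the members, 4 were higher in mut rescue than in wt rescue (WWTR1, TEAD1, CTGF and ANKRD1) and 4 lower (YAP1, TEAD4, CYR61 and AXL), beside a background of 29.8% higher and 31.3% lower. YEATS4 itself was 0.37 log2 lower in mut rescue (limma, adjusted p = 0.000443), so the lines differed in YEATS4 transcript as well as in its sequence, and the part of that level was not tested. EPCAM was 5.40-fold and CDH1 8.26-fold lower in mut rescue than in wt rescue. KRT20 went the other way, at 95.4 ± 9.52 normalized reads in mut rescue against 22.7 ± 8.58 in wt rescue (SD, n = 3). KRT8 (means 40057 and 41543) and KRT18 (18528 and 18696) lay close together. The part of these markers was not tested either.

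Those higher in mut rescue had well-separated libraries. The ratio for ANKRD1 was 17.1 (exact 95% interval 9.32 to 34.8; 0.95 log2; limma, adjusted p = 2.23e-08), and CTGF stood 1.92-fold higher (0.40 log2; limma, adjusted p = 4.97e-05). As ANKRD1 passed the read minimum only through GAS41-KO and mut rescue, its difference from wt rescue was in part fixed by that filter. TEAD1 stood 1.57-fold higher (0.63 log2; limma, adjusted p = 5.64e-06) and WWTR1 0.47 log2 higher (limma, adjusted p = 3.33e-05). Of those lower, TEAD4 was 1.72-fold lower (-0.63 log2; limma, adjusted p = 2.01e-07) and AXL 1.35-fold lower (-0.41 log2; limma, adjusted p = 4.55e-05).

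The calls for YAP1 (-0.24 log2; limma, adjusted p = 0.0132) and CYR61 (-0.22 log2; limma, adjusted p = 0.0139) were less stable. For YAP1 the adjusted p was 0.0591 without mut rescue replicate 2 and 0.0503 without wt rescue replicate 3. For CYR61 it was 0.0579 without mut rescue replicate 1 and 0.0897 without wt rescue replicate 2. AMOTL2 (0.11 log2, -0.04 to 0.26; limma, adjusted p = 0.175) and LATS2 (0.08 log2, -0.03 to 0.19; limma, adjusted p = 0.208) did not pass, although AMOTL2 did without mut rescue replicate 1 (adjusted p = 0.0335).

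The order of group levels therefore differed from gene to gene. For WWTR1, CTGF and ANKRD1 it ran from WT and wt rescue through mut rescue to GAS41-KO, and for CTGF and ANKRD1 the lower pair was not called different. For TEAD1 the groups fell into a low pair, WT and wt rescue, and a high pair, GAS41-KO and mut rescue, and neither pair was called different within itself. TEAD4 had a low pair of GAS41-KO and mut rescue, then WT, then wt rescue. LATS2 was lowest in WT, with no call between the other 3 groups. AXL was lowest in WT and highest in wt rescue, with GAS41-KO and mut rescue between them and not called different.

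In the second experiment YEATS4 went from 694, 612 and 698 normalized reads in DMSO to 173, 193 and 188 with doxorubicin, a fall of 1.25 log2 (3.61-fold lower; limma, adjusted p = 3.58e-09). Of the members, 8 rose, 1 (TEAD4) fell and 1 (TEAD1) did not pass the test. The background was 32.3% of tested genes higher and 33.4% lower, and the median change was 0.68 log2 for the members against -0.01 for all 14195 tested genes. Colon epithelial markers summed to 150010.0 to 169530.0 normalized reads with doxorubicin and to 74808 to 91096 in DMSO, and blood and immune markers to 196 to 231 and 257 to 296. The epithelial sum was higher mainly in KRT8 (41323 ± 5768 to 91614 ± 4983; SD, n = 3) and KRT19 (15758 ± 1726 to 36919 ± 3521). Means were also higher with doxorubicin than in DMSO for KRT18 (17039.5 against 13465.8), CDH1 (2104.6 against 1404.5) and CLDN4 (3904.1 against 2612.3). The same held for CDX2 (436.94 against 342.98), KRT20 (99.63 against 16.26) and VIL1 (46.46 against 0.323). EPCAM was lower, going from 7198 ± 391 to 4938 ± 409. CLDN3 differed by less than its SD (186 ± 30.2 to 181 ± 11.97). Endothelial markers summed to 37.5 to 43.4 with doxorubicin and 15.3 to 27.8 in DMSO, and fibroblast markers to 330 to 408 and 246 to 339. The fibroblast sums are mostly COL1A1 (means 326 with doxorubicin and 291 in DMSO), and the blood and immune sums mostly CD68 (171 and 256). The part of these shifts in the changes of the members was not tested. No call of a member changed when any 1 library was left out.

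On the log2 scale the CCN genes had the highest changes of the members. CTGF was read at 31.5, 30.8 and 38.8 normalized reads in DMSO and at 663, 735 and 761 with doxorubicin. This was 21.3-fold (2.32 log2, 2.18 to 2.46; limma, adjusted p = 1.08e-11). CYR61 was read at 243, 220.3 and 211 in DMSO and at 2084, 2211 and 2076 with doxorubicin. Its rise was 9.46-fold (2.51 log2, 2.37 to 2.65; limma, adjusted p = 6.19e-12), and in neither gene did the groups come near each other.

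ANKRD1 remained at few reads. It had 0, 1.98 and 0.970 normalized reads in DMSO and 17.8, 12.2 and 9.86 with doxorubicin. The summed reads were 40 against 3, a ratio of 13.4 with an exact 95% interval of 4.27 to 67.7, and the deposited values differed by 0.39 log2 (limma, adjusted p = 9.7e-05). Its doxorubicin libraries alone carried it past the read minimum.

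AMOTL2 was read at 888, 786 and 818 normalized reads in DMSO and at 3132, 2924 and 3286 with doxorubicin, 3.75-fold higher (1.69 log2; limma, adjusted p = 4.4e-10). LATS2 was read at 295, 271 and 264 in DMSO and at 606, 501 and 652 with doxorubicin, 2.12-fold higher (0.75 log2; limma, adjusted p = 2.03e-06). AXL was read at 1324, 1183 and 1189 in DMSO and at 4045, 3560.3 and 3843 with doxorubicin, 3.10-fold higher (1.49 log2; limma, adjusted p = 1.93e-09). Feedback inhibitors and receptor were thus all higher in each doxorubicin library than in any DMSO library.

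Both coactivators rose as well. YAP1 was read at 2154, 2063 and 2337 normalized reads in DMSO and at 3610.1, 3150.2 and 3622 with doxorubicin (0.62 log2, 0.45 to 0.78; 1.58-fold; limma, adjusted p = 1.24e-05). WWTR1 was read at 1225, 1154 and 1254 in DMSO and at 1709.7, 1484 and 1654 with doxorubicin (0.36 log2, 1.33-fold; limma, adjusted p = 0.000528). TEAD4 fell from 718, 637 and 596 to 502, 555 and 494 (-0.25 log2, 1.26-fold lower; limma, adjusted p = 0.00775). TEAD1 had overlapping groups, 2355, 2568 and 3057 in DMSO and 2861, 2094 and 2830.1 with doxorubicin, and a difference of -0.04 log2 (-0.29 to 0.21; limma, adjusted p = 0.785).

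**Figure D4:**
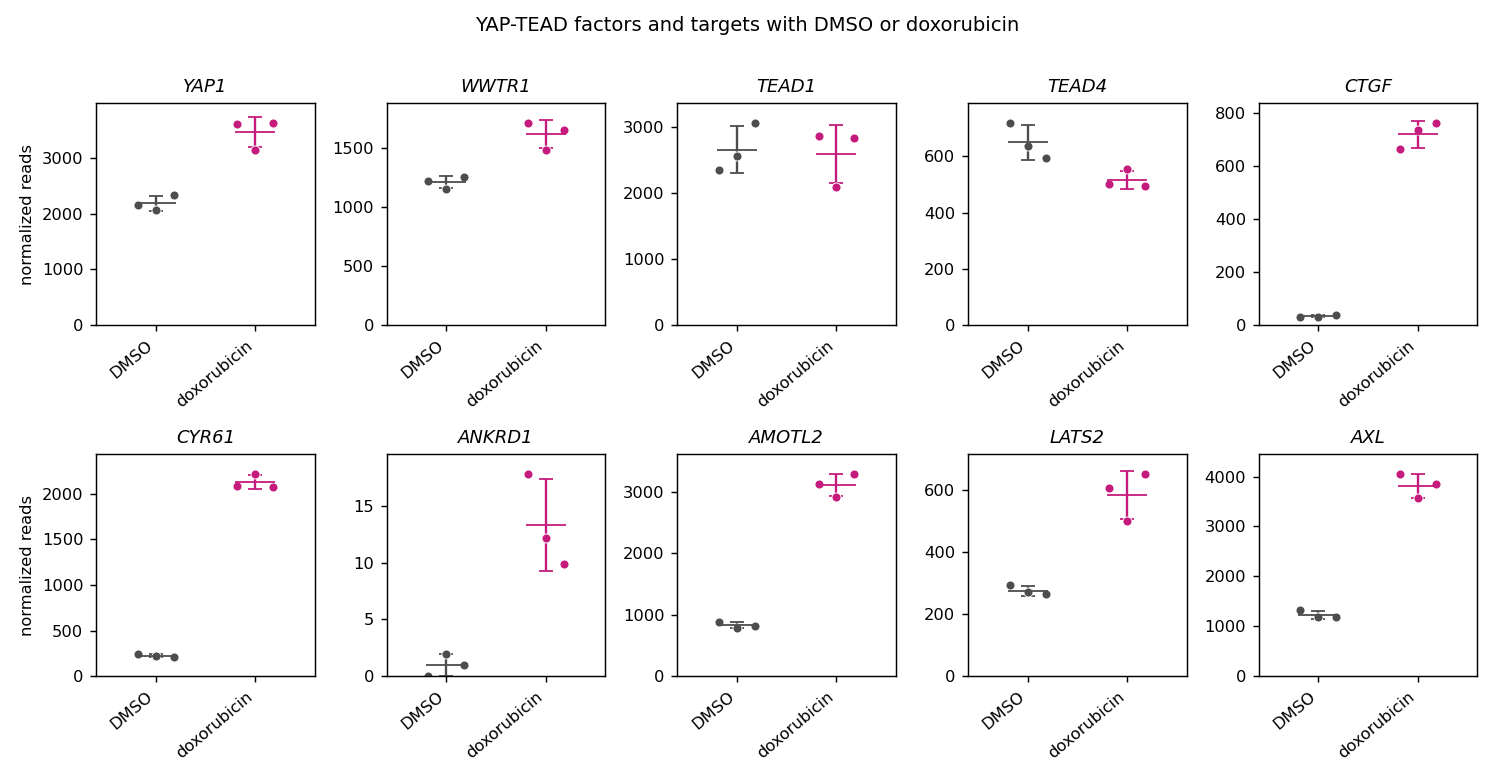
Normalized reads of the 10 members in the 6 libraries of the doxorubicin experiment, 1 panel per gene with its own linear axis from 0; points are libraries, dashes the mean of 3 libraries and error bars its SD. CTGF, CYR61, AMOTL2 and AXL are separated widely from DMSO, whereas the TEAD1 groups overlap.

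The tables of the GAS41 and doxorubicin experiments were normalized separately and share no library, so values of a gene are set side by side without a test between them. WWTR1 rose 2.78-fold in GAS41-KO and 1.33-fold with doxorubicin, whereas YAP1 had no call in GAS41-KO and rose 1.58-fold with doxorubicin. CYR61 rose 1.54-fold in GAS41-KO and 9.46-fold with doxorubicin. TEAD1 rose 1.69-fold in GAS41-KO and was not called with doxorubicin, and TEAD4 fell in both.

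Other genes of the pathway were taken from lists chosen by role. Their counts are to be read against the shares of all tested genes called higher and lower, which were 26% and 26.6% in GAS41-KO over WT, 33% and 33% in wt rescue over GAS41-KO, 5.92% and 9% in mut rescue over GAS41-KO, and 32.3% and 33.4% with doxorubicin. Of 19 Hippo kinases, adaptors and scaffolds, 7 rose and 3 fell in GAS41-KO (median 0.13 log2), beside those 26% and 26.6%. WWC3, a KIBRA family scaffold that activates LATS, rose 2.43-fold, from 156 ± 3.70 to 379.8 ± 20.01 normalized reads (SD, n = 3). AMOTL1, another angiomotin-like protein, rose 1.63-fold, and LIMD1, a LIM protein that binds LATS, was 1.46-fold lower. In wt rescue 5 of the 19 rose and 10 fell against GAS41-KO (median -0.19 log2), with WWC3 3.66-fold lower and WWC1 1.99-fold higher. MOB1B, also lower, was uneven within wt rescue, with 879 normalized reads in replicate 1 against 353 and 367 in replicates 2 and 3. In mut rescue 4 of the 19 fell and none rose (median -0.07 log2), but 2 were called without mut rescue replicate 1, 1 without GAS41-KO replicate 1 and 2 without GAS41-KO replicate 3. With doxorubicin 8 rose and 6 fell (median 0.12 log2), beside 32.3% and 33.4%, with AJUBA, a LIM protein that inhibits LATS, 4.64-fold higher and NF2, an upstream activator of the cascade, 1.87-fold higher.

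Of 6 other TEAD and VGLL genes, the latter being cofactors that compete with YAP for TEAD, 3 were tested. TEAD2 rose 1.32-fold in GAS41-KO and was 1.51-fold lower in wt rescue and 1.35-fold lower in mut rescue than in GAS41-KO. With doxorubicin TEAD3 rose 3.16-fold, from 616 ± 52.2 to 1944 ± 42.7 normalized reads (SD, n = 3), and TEAD2 was 2.02-fold lower. The list median was -0.08 log2 in GAS41-KO and 0.20 with doxorubicin.

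Of 16 further YAP-TEAD targets, 13 were tested in each table, but not the same 13. FOXF2 and RBMS3 were tested in neither, CCDC80 only with doxorubicin and TGFB2 only in the GAS41 experiment. In GAS41-KO 8 rose and 2 fell (median 0.34 log2), beside 26% and 26.6% of all tested genes. TGFB2, a secreted ligand of the TGF-beta pathway, went from 5.39 ± 3.07 to 237 ± 21.2 normalized reads (SD, n = 3), and IGFBP3, a carrier of insulin-like growth factors, from 6.002 ± 6.14 to 103 ± 11.4. Both had fewer than 10 reads in most or all WT libraries and passed the read minimum through other groups, in which they are high. In wt rescue 2 rose and 6 fell against GAS41-KO (median -0.15 log2): TGFB2 was 6.55-fold lower, whereas F3, the tissue factor that starts coagulation, was 2.77-fold higher. In mut rescue 1 rose and 6 fell (median -0.19 log2), with IGFBP3 2.39-fold lower and F3 1.58-fold higher. With doxorubicin 11 rose and none fell (median 0.66 log2), beside 32.3% and 33.4%. On the deposited log2 scale the largest of these changes were those of F3 (2.20 log2, 5.84-fold), GADD45A, a stress gene that p53 also drives (1.73 log2, 3.91-fold), and NUAK2, a kinase (1.56 log2, 6.75-fold). IGFBP3 and CCDC80, singled out after their values were seen, passed the read minimum only through the doxorubicin libraries.

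Of 8 relatives of the members, CCN proteins and the AXL family with its ligands, 5 were tested. In GAS41-KO 2 rose and 2 fell (median 0.13 log2), beside 26% and 26.6% of all tested genes. PROS1, a ligand of the AXL family, rose 1.99-fold and the receptor MERTK 1.59-fold, whereas GAS6, the AXL ligand, was 1.302-fold lower. Against GAS41-KO, 2 rose and 3 fell in wt rescue (median -0.41 log2) and 3 fell in mut rescue (median -0.25 log2), with PROS1 2.31-fold and 1.44-fold lower. With doxorubicin 3 rose and 2 fell (median 0.24 log2), beside 32.3% and 33.4%, with MERTK 2.1-fold higher and its relative TYRO3 1.45-fold lower.

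Of 8 AP-1 genes, 4 rose in GAS41-KO and none fell (median 0.24 log2), beside 26% and 26.6% of all tested genes. With only the GAS41-KO and WT libraries in the fit, 5 were called higher and 2 lower. JUN went from 252 ± 23.0 to 728 ± 15.4 normalized reads (SD, n = 3; 2.89-fold), FOSL2 rose 2.60-fold and FOS 1.89-fold. In wt rescue 2 rose and 4 fell against GAS41-KO (median -0.22 log2), with FOS 2.38-fold lower and FOSL1 1.77-fold higher. In mut rescue 3 rose and none fell (median 0.10 log2; 3 higher and 2 lower without mut rescue replicate 2), among them JUN at 1.51-fold. With doxorubicin 6 rose and none fell (median 0.65 log2), beside 32.3% and 33.4%, with ATF3 4.05-fold and FOSL2 2.98-fold higher. The plot of changes by list sets the genes of each list beside the members.

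**Figure D5:**
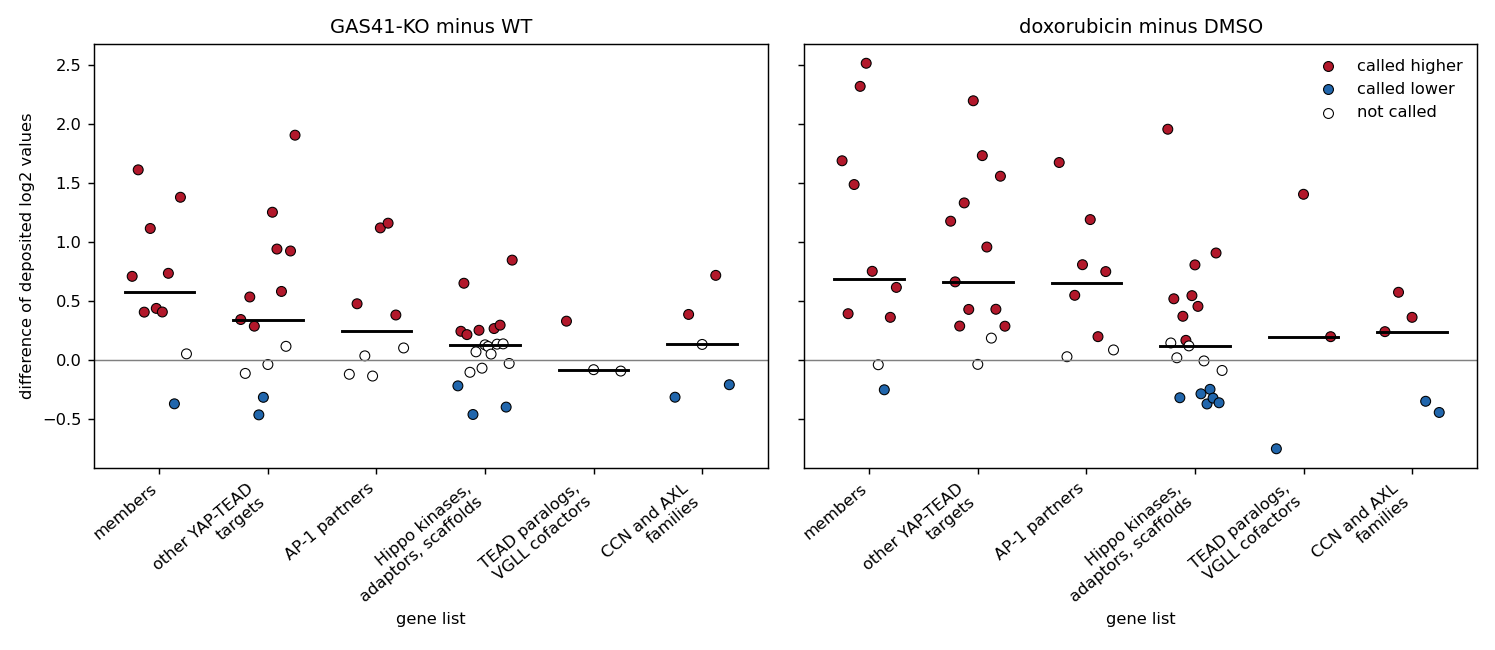
Difference of deposited log2 values for each tested gene (points) of the members and of 5 lists of related genes, in GAS41-KO over WT and in doxorubicin over DMSO; filled points are called higher or lower, open points are not called, and the black line is the list median. In GAS41-KO 8 of 10 members are higher and 1 lower, and with doxorubicin 11 of 13 further targets are higher and none lower. ANKRD1 (both panels), TGFB2 (GAS41-KO), IGFBP3 (both panels) and CCDC80 (doxorubicin) passed the read minimum through groups in which they are high.

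The genes with patterns most like those of the members were sought in the GAS41 table, by the root mean square difference of log2 deviations from WT over 12 libraries. This was done for the 7 members whose group means spanned at least 0.5 log2. Nearest to WWTR1 were MACF1, a cytoskeletal crosslinker (0.11 log2), and BATF2 (0.12), and to ANKRD1 ZCCHC24 (0.13) and GFPT2 (0.14). Nearest to CTGF were ZFYVE28 (0.09) and HLA-B (0.09), and to AMOTL2 PTK7 (0.05) and RHBDD2 (0.07). TEAD1 was nearest to CFAP43 (0.06) and USP46 (0.07), TEAD4 to SH2D4A (0.03) and BOD1 (0.04), and AXL to the protease gene PRSS23 (0.07) and IL6R (0.09). No member was among the 2 nearest genes of another. These distances describe the 12 libraries, which have similar depths, and carry no test.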

How the data were processed

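RNA of 18 HCT116 libraries was analysed: 12 of the GAS41 experiment (poly-A RNA on a BGISEQ-500) and 6 of the doxorubicin experiment (Illumina HiSeq, by its label). Tools named in the submitters' processing notes, without role or order, are DESeq2, HTSeq, TopHat2 2.1.0, Bowtie 1.0.1, Trimmomatic 0.36 and CASAVA 1.4, and the builds named are hg19 and mm9. Annotation and the strand setting of counting are not given in the sources used here, so antisense reads, such as those of WWTR1-AS1, may not be told apart.

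Both deposited tables hold log2 values that the authors had variance-stabilized after dividing reads by a size factor, as read from the values: the inverse gives whole reads to within 0.01 for 100% of values. The planned test, limma 3.58.1 (R 4.3.3), was used on the log2 values. A count test was to replace it only if the deposited values were whole counts. The fit had a mean-dependent prior variance, with 12 libraries in one fit and 6 in the other. Genes with at least 10 reads in at least 3 libraries were tested, and calls were made at a Benjamini-Hochberg adjusted p under 0.05 over all tested genes. Bounds are 95% intervals. Those on read ratios cover counting error only, as reads are not independent molecules. Figures were drawn with matplotlib 3.10.9 in Python 3.11.15. The procedure was tested on simulated reads with the same spread in every library, for GAS41-KO over WT and doxorubicin over DMSO only. Genes with few reads in WT or DMSO, such as ANKRD1, were left out of the simulation. It therefore does not cover such genes or the wide pairs of libraries.

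The members and lists were chosen with earlier results of these data known. All 10 members and YEATS4 are named in every comparison whatever their values. From each list up to 3 called genes with the largest log2 difference and groups that do not overlap may be named, and for each member the 2 genes of most similar pattern. Upstream sequences are from RefSeq, GRCh38.p14, matched by symbol. Alternatives were another scaling, log2 of normalized reads plus 1, voom, no filter on reads and fits of only the groups compared. Others were the replicate number as a block, wt rescue replicate 1 alone, and leaving out each library of the groups compared.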

Additional observations from a re-analysis of the deposited data

Results flagged for a closer look

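For 8 of the 10 members the change over GAS41-KO differed between the rescue lines by the test of the difference itself, which is the direct comparison of mut rescue with wt rescue (limma, Benjamini-Hochberg adjusted p under 0.05). Of all tested genes 29.8% were called higher and 31.3% lower in that comparison, so a call there is common. The change in mut rescue minus that in wt rescue was 0.95 log2 for ANKRD1, 0.63 for TEAD1, 0.47 for WWTR1 and 0.40 for CTGF, and these genes were lower in all 3 wt rescue libraries than in any mut rescue library. It was -0.63 for TEAD4, -0.41 for AXL, -0.24 for YAP1 and -0.22 for CYR61. The last of these are the calls that single libraries ended. All 8 values share the same 6 libraries, so they are not independent of each other. That of ANKRD1 was in part fixed by the read minimum, which this gene passed only through GAS41-KO and mut rescue.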

How the results depend on the processing

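No difference of a member changed sign with a call under any alternative, and the numbers of members called stayed within 1.5 times those reported. No filter on reads, log2 of normalized reads plus 1, voom and the replicate block each kept the call of every member in all 7 comparisons. Another scaling, quantile normalization, ended the calls of WWTR1 in wt rescue over WT (0.12 log2, adjusted p = 0.145) and of YAP1 between the rescue lines (-0.13, adjusted p = 0.135). It added calls for YAP1 in wt rescue over GAS41-KO (-0.23, adjusted p = 0.00861), CTGF in wt rescue over WT (0.20, adjusted p = 0.0207) and AMOTL2 between the rescue lines (0.19, adjusted p = 0.0268), where it gave 5 members higher and 3 lower in mut rescue. Fitting only the rescue lines ended the calls between them of YAP1 (adjusted p = 0.0660) and CYR61 (adjusted p = 0.0566), with their differences the same (-0.24 and -0.22 log2). With replicate 1 as the only wt rescue library, assumed to vary like the other groups, the calls of WWTR1 over WT and of YAP1 and CYR61 between the rescue lines ended (adjusted p = 0.450, 0.186 and 0.313), as did that of YEATS4 between the rescue lines (adjusted p = 0.0513). The causes were not tested. Leaving out 1 library of the compared groups at a time gave 9 members called in GAS41-KO over WT, in mut rescue over WT and with doxorubicin. It gave 7 in wt rescue over GAS41-KO and 4 to 6 in mut rescue over GAS41-KO. The range was 5 to 6 in wt rescue over WT and 7 to 8 between the rescue lines.

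Replicate numbers were not taken as pairing the samples, since not every same-numbered pair had a correlation of deviations from the group means over 0.1. In the GAS41 table these ran from 0.136 to 0.232 for replicate 1, from 0.0036 to 0.478 for replicate 2 and from -0.391 to 0.0934 for replicate 3, and they were -0.393, 0.0833 and 0.150 for doxorubicin. Nor did every library correlate best with its own number. With the number as a block, 9, 7, 5, 6, 9, 8 and 9 members were called, in the order GAS41-KO over WT, wt rescue over GAS41-KO, mut rescue over GAS41-KO, wt rescue over WT, mut rescue over WT, mut rescue over wt rescue and doxorubicin over DMSO, as without it. Depth limits ANKRD1 most, with 6 reads in WT, 11 in wt rescue and 3 in DMSO.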
